A study of Homo sapiens with 16 samples.

Results

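The unfolded protein and ATF4 response genes are a list of 38 genes, which was matched by gene symbol to both deposited tables of transcript abundance. All 38 had a single row among the 57773 genes of the tables, and 38 of 38 passed the filter on low values that left 16967 genes for testing. By their known roles, 16 were placed in an endoplasmic reticulum (ER) folding arm, 18 in an ATF4 arm, and 4 (the sensors ERN1, EIF2AK3 and ATF6, with XBP1) in neither. They were followed in A549, an established human lung adenocarcinoma cell line, treated with TGF-beta to induce an epithelial to mesenchymal transition. Libraries were made at 0, 6, 12, 24, 36, 48, 72 and 96 h, with 2 libraries at each time, numbered replicate 1 and replicate 2. The tables give TPM, the abundance of a gene's transcripts as a share of the library, corrected for gene length, and each replicate number has a table of its own. No untreated cultures of the later times were analysed here, so time in culture and TGF-beta cannot be told apart. Whether the 2 libraries of a time came from separate cultures is not stated in the labels, and p-values then cover only the spread between libraries, which may be technical. All samples are bulk RNA, in which fewer cells of a type and less RNA per cell cannot be told apart.

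The unfolded protein response is a set of pathways by which a cell answers unfolded protein in the ER. The sensors IRE1 (ERN1), PERK (EIF2AK3) and ATF6 sit in the ER membrane; IRE1 splices XBP1 mRNA, ATF6 is cut to release a transcription factor, and both routes raise genes for chaperones, disulfide isomerases and ER-associated degradation. PERK phosphorylates the translation factor eIF2, which favours translation of ATF4. Other eIF2 kinases, which answer amino acid shortage, haem shortage or viral RNA, reach ATF4 as well, and ATF4 raises genes for amino acid uptake, amino acid synthesis and feedback. Gene-level TPM do not show XBP1 splicing, ATF6 cleavage or ATF4 translation.

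The promoters of several members carry the short elements through which these factors are known to act, and they are shown because the arms compared here differ in them. Promoter windows ran from 250 bases before to 50 bases after the start of a gene, as RefSeq gives them on GRCh38.p14, and 34 of the 38 members had a window. Both strands were searched for 4 motifs, and a gene counts where any of its windows holds one. The ER stress element was CCAAT, 9 free bases and CCACG. The ER stress element II was ATTGG, 1 free base and CCACG. The unfolded protein response element was TGACGTGG, and the C/EBP-ATF composite element was TGATG, 1 free base and AA. An ER stress element of either kind was found in 9 of 15 ER folding arm genes, in 0 of 15 ATF4 arm genes and in XBP1, against 44 of all 27305 genes with a window (0.161%). The C/EBP-ATF element was found in 4 of 15 ATF4 arm genes (ASNS, CHAC1, CEBPG and SLC3A2) and in 1 of 15 ER folding arm genes (HERPUD1), against 4.46% of all genes with a window. The unfolded protein response element was found among the members in HYOU1 only, where it overlapped an ER stress element II, against 0.927% of all genes with a window. These matches describe letters in a window and not occupied sites. Each line below gives the coding strand of the gene, 5′ to 3′, with the element in capitals; in CALR, CRELD2, SDF2L1, CHAC1 and HERPUD1 (C/EBP-ATF) the capitals are the element read from the opposite strand. The first 5 lines hold the ER stress element, the next 2 lines its second form and the last 4 lines the C/EBP-ATF element.
HSPA5 chr9:125241371-125241429 (minus strand): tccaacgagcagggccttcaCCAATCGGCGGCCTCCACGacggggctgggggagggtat
PDIA6 chr2:10812833-10812891 (minus strand): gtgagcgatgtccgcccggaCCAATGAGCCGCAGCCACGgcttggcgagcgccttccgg
CALR chr19:12938364-12938422 (plus strand): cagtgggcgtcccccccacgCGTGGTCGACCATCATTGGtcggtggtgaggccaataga
CRELD2 chr22:49918534-49918592 (plus strand): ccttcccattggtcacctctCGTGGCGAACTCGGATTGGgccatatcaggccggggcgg
XBP1 chr22:28800583-28800641 (minus strand): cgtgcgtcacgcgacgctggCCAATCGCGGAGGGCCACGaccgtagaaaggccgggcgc
HERPUD1 chr16:56932005-56932055 (plus strand): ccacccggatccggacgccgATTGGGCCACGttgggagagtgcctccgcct
SDF2L1 chr22:21642094-21642144 (plus strand): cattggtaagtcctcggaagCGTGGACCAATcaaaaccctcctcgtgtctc
HERPUD1 chr16:56931946-56931993 (plus strand): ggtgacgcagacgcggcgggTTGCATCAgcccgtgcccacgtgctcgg
ASNS chr7:97872449-97872496 (minus strand): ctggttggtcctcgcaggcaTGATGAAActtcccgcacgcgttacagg
CHAC1 chr15:40953242-40953289 (plus strand): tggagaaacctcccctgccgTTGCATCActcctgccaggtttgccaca
CEBPG chr19:33374051-33374098 (plus strand): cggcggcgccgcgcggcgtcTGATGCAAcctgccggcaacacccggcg

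The libraries held the epithelial keratins KRT8 (537 to 1962 TPM) and KRT18 (659 to 2734 TPM), and EPCAM was low (0.74 to 4.52 TPM). SFTPC, SFTPA1 and SFTPB, which mark alveolar type II cells, lay below 1 TPM in all 16 libraries. Of the other markers of these cells examined, ABCA3 had 4.26 to 12.67 TPM and NAPSA reached 1.21 TPM. Summed markers reached at most 7.32 TPM for fibroblasts, 7.41 TPM for endothelium, 13.6 TPM for leukocytes and 0.43 TPM for erythroid cells. Over 0 to 96 h, FN1, a matrix protein of the transition, had 135, 146, 389, 429, 694, 503, 1292 and 1831 TPM in replicate 1. It had 83.3, 64.2, 133, 288, 420, 441, 635 and 728 TPM in replicate 2, so its levels at 36 to 96 h exceeded both 0 h levels in both tables. From 0 h to 36 to 96 h, CDH2 went from 36.8 to 65.6 to 142 TPM in replicate 1. In replicate 2 it went from 16.5 to 48.6 to 64.5 TPM. VIM went from 553 to 807 to 1116 TPM and from 495 to 675 to 951 TPM. The epithelial CDH1 went from 14.5 to 0.44 to 1.02 TPM and from 27.6 to 2.26 to 3.38 TPM. The tables thus changed in the same direction but differed in level. A set of 6 abundant small RNAs took 42.5% of the TPM in 12 h replicate 1 and 50.6% to 64.1% in the other libraries. Genes listed at 0 numbered 29278 to 31187 per library, but 36116 in 36 h replicate 2 and 36294 in 48 h replicate 2; no member was at 0 in any library. Because the small RNA share moves the scale of all other genes, results are also given with TMM scaling (trimmed mean of M-values), which brought the median log2 change of all genes against 0 h to between -0.06 and 0.00. As deposited, that median lay between -0.46 and 0.03. Members are compared on log2(TPM + 1), and all comparisons against 0 h share the same 2 libraries of 0 h. In the series of values that follow, each run of 8 gives 0, 6, 12, 24, 36, 48, 72 and 96 h in that order.

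As deposited, the ER chaperones and their cofactors were mostly at their highest at 12 or 24 h. At 72 and 96 h 2 of them, MANF and SDF2L1, were lower than at 6 and 12 h by limma's test. Of all genes 2.3% were called lower in that test, and the SDF2L1 call was lost with TMM scaling. HSPA5 encodes BiP, the main Hsp70 chaperone of the ER. HSPA5 had 68.7, 75.1, 194, 117, 111, 45.6, 94.1 and 94.6 TPM in the replicate 1 libraries. The replicate 2 libraries gave 50.4, 51.5, 77.4, 76.02, 46.4, 30.3, 42.1 and 33.7 TPM. In both tables the top was at 12 h, and all 4 libraries of 12 and 24 h lay above both of 0 h. MANF is an ER protein that binds BiP. MANF had 24.5, 38.9, 55.4, 46.97, 27.8, 18.8, 24.1 and 23.7 TPM in the replicate 1 libraries. Its replicate 2 values were 25.6, 39.5, 44.9, 45.3, 37.1, 26.8, 26.02 and 16.98 TPM. The 2 tables ran close together for MANF, and the libraries of 6, 12 and 24 h all lay above those of 0 h. SDF2L1 is an ER protein that works with J-domain cochaperones of BiP. SDF2L1 had 13.8, 19.1, 19.9, 16.7, 10.8, 7.53, 8.04 and 7.46 TPM in the replicate 1 libraries. Across replicate 2 the series was 14.5, 15.9, 15.6, 15.01, 13.7, 9.66, 11.1 and 12.1 TPM. Its values at 48 to 96 h were below both 0 h values in both tables. The Hsp90 chaperone HSP90B1 had up to 457 TPM in 12 h replicate 1 and up to 361 TPM in 24 h replicate 2. The other members of this group (the Hsp70 relative HYOU1, the cochaperones DNAJB9 and DNAJC3, and CRELD2) lay between 5.11 and 39.3 TPM over all 16 libraries. As deposited, outside 12 and 24 h lay only the tops of DNAJB9 (72 h in replicate 1 and 96 h in replicate 2) and of SDF2L1 in replicate 2 (6 h). With TMM scaling the tops of MANF and DNAJC3 in replicate 1 and of SDF2L1 in both tables were at 6 h. In that scaling CRELD2 had its top at 36 h in replicate 2, and DNAJB9 at 48 h in replicate 1 and 96 h in replicate 2. HSPA5, HSP90B1 and HYOU1 kept their tops at 12 or 24 h in both tables.

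The lectin chaperones and disulfide isomerases followed the same course. PDIA3 is a disulfide isomerase that works with calnexin and calreticulin. PDIA3 had 116, 109, 189, 175, 147, 77.6, 105 and 134 TPM in the replicate 1 libraries. Replicate 2 held 111, 119.96, 142, 181, 166, 125, 142 and 116 TPM of it. Its 4 libraries of 12 and 24 h did not overlap those of 0 h. CALR encodes calreticulin, a lectin chaperone of the ER lumen. CALR had 265, 233, 357, 355, 279, 109.8, 153 and 203 TPM in the replicate 1 libraries. In the replicate 2 libraries it had 215, 235, 272, 331, 291, 204, 241 and 201 TPM. Replicate 1 was at its lowest at 48 h, the library with the largest share of small RNAs. CANX, PDIA4 and PDIA6 lay between 49.1 and 407 TPM, each with its top at 12 h in replicate 1 and at 24 h in replicate 2.

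Among the genes of ER-associated degradation the tables ran apart at every late time for HERPUD1. For EDEM1 they were close at 48 h, and for SEL1L they had no steady order. HERPUD1 is a membrane protein of the degradation complex. HERPUD1 had 31.9, 27.2, 70.2, 49.6, 65.9, 40.3, 61.4 and 64.4 TPM in the replicate 1 libraries. The replicate 2 libraries gave 21.6, 28.3, 33.5, 36.7, 31.8, 18.6, 21.6 and 18.8 TPM. It was above both 0 h values in all 4 libraries of 12 and 24 h, and from 36 h on replicate 1 exceeded replicate 2 at every time. EDEM1 helps to hand misfolded glycoproteins to degradation. EDEM1 had 12.3, 9.77, 20.4, 17.1, 18.4, 10.2, 17.9 and 21.3 TPM in the replicate 1 libraries. Its replicate 2 values were 11.7, 10.9, 12.3, 14.1, 9.51, 9.88, 12.4 and 9.45 TPM. SEL1L, the adaptor of the ubiquitin ligase, lay between 16.6 and 33.2 TPM. Its gaps, replicate 1 minus replicate 2, were 0.27, -0.22, 0.12 and 0.62 log2 units at 36, 48, 72 and 96 h.

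**Figure D1:**
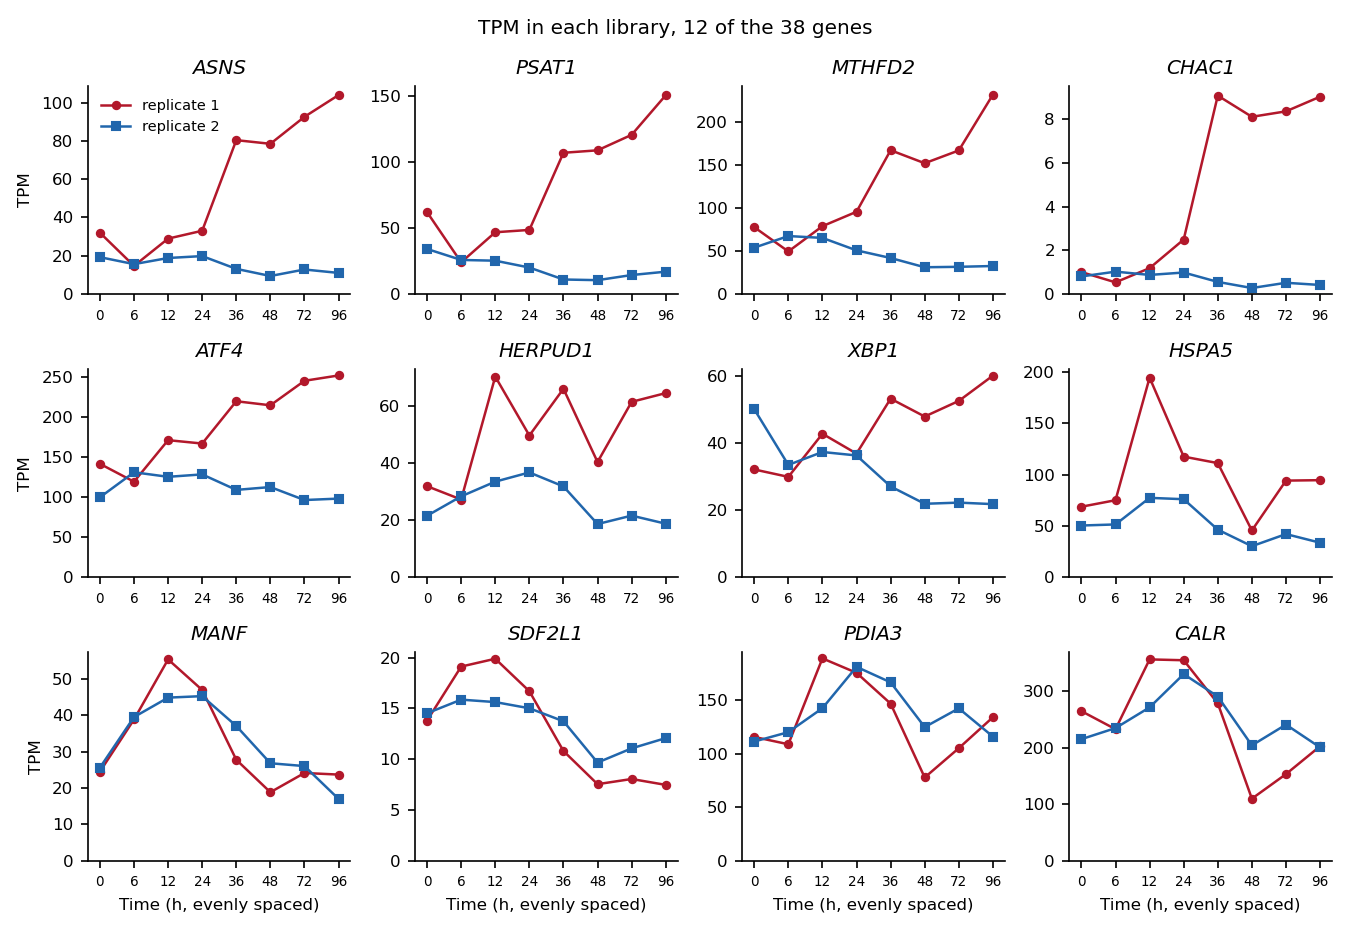
TPM (vertical axes, from 0) over time in hours (horizontal axes, 8 times evenly spaced) for 12 of the 38 genes; red circles are the replicate 1 libraries and blue squares the replicate 2 libraries, 1 library per point. MANF, PDIA3 and CALR have their highest values at 12 or 24 h in both tables, while ASNS, PSAT1, MTHFD2 and CHAC1 separate by replicate number from 36 h on.

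Over the ER folding arm, 13 of 16 genes were highest at 12 or 24 h in both tables, against 2 of 18 in the ATF4 arm and 9.67% of all genes tested. With TMM scaling these numbers were 8, 1 and 6.25%. All 4 libraries of 12 and 24 h lay above both of 0 h for 11 of 16 ER folding genes and for 1 ATF4 arm gene, CEBPG, against 10.7% of all genes; with TMM scaling, for 13 and 2 genes against 15.8%. All 4 libraries of 72 and 96 h lay below all 4 of 12 and 24 h for 9 of 16 ER folding genes and 0 ATF4 arm genes, against 8.39% of all genes; with TMM scaling, for 6 and 1 genes against 7.03%. The 12 h replicate 1 library, which set many of these tops, had the lowest small RNA share of all libraries. These counts are descriptions of 1 set of libraries that all genes share.

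In limma's moderated test over all 16967 genes, with p-values adjusted by Benjamini-Hochberg and called below 0.05, no member was called against 0 h at any of the 7 later times. At an unadjusted p below 0.05, 1 member passed at 6 h (MANF), 2 at 12 h (HYOU1 and MANF), 2 at 24 h (MANF and PDIA3), 3 at 48 h (CALR, PDIA6 and SDF2L1), and 0 at 36, 72 and 96 h. At an unadjusted p below 0.05 the share of all genes was 13.6%, 8.29%, 10.8%, 14.4%, 28.9%, 15.9% and 13.4% from 6 to 96 h in order. Among all genes tested the share called by adjusted p was 0.0177%, 0.383%, 1.21%, 2.3%, 7.6%, 2.58% and 1.79% over these times in order. The log2 fold change of MANF was 0.97 at 12 h (SE 0.24, limma adjusted p 0.123) and 0.86 at 24 h (SE 0.24, limma adjusted p 0.132). For HSPA5 it was 1.05 at 12 h (SE 0.59, limma adjusted p 0.775), and its SE was 0.27 with the replicate number as a block. It was 0.39 without 12 h replicate 1 and 1.71 without 12 h replicate 2, in fits with no block. With TMM scaling and the replicate number as a block, HSPA5 rose at 12 h (1.02, SE 0.17, limma adjusted p 0.00452) and at 24 h (0.85, SE 0.17, limma adjusted p 0.00873). In that fit MANF rose at 6 h (1.03, limma adjusted p 0.0276), 12 h (0.94, limma adjusted p 0.0175) and 24 h (1.02, limma adjusted p 0.00804). DNAJC3 was called higher at 6 and 24 h and PDIA3 at 24 h in it, so that 2, 2 and 4 members were called at 6, 12 and 24 h, against 1.88%, 5.35% and 7.27% of all genes. With TMM scaling and no block, MANF at 24 h was the only one of these calls (1.02, SE 0.23, limma adjusted p 0.038), where 2.81% of all genes were called.

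Set against 6 and 12 h, 72 and 96 h had 2 members lower and 0 higher, where 3.65% of all genes were called and 2.3% were called lower. MANF had 24.1, 26.02, 23.7 and 16.98 TPM at 72 and 96 h, against 38.9, 39.5, 55.4 and 44.9 TPM at 6 and 12 h, with no overlap. It fell by 0.95 on the log2 scale (SE 0.17, limma adjusted p 0.00986). SDF2L1 had 8.04, 11.1, 7.46 and 12.1 TPM at 72 and 96 h, against 19.1, 15.9, 19.9 and 15.6 TPM at 6 and 12 h, again with no overlap. It fell by 0.82 on the log2 scale (SE 0.19, limma adjusted p 0.0359). The share of all genes with no overlap between these times was not counted. The MANF call was lost without 6 h replicate 2 (limma adjusted p 0.057) and without 72 h replicate 1 (limma adjusted p 0.0555). The SDF2L1 call was lost with TMM scaling (-0.79, limma adjusted p 0.0732) and without each of 6 of the 8 libraries compared: 6 h replicate 1 (limma adjusted p 0.114), 6 h replicate 2 (0.0979), 12 h replicate 1 (0.0902), 12 h replicate 2 (0.0504), 72 h replicate 1 (0.171) and 96 h replicate 1 (0.0814). With the replicate number as a block, 5 members were called against 7.78% of all genes. Both falls were kept, and the amino acid exchanger subunits SLC7A5 (-1.44, SE 0.38, limma adjusted p 0.0339) and SLC3A2 (-0.96, SE 0.26, limma adjusted p 0.0392) fell as well. The lipoprotein receptor VLDLR rose in that fit (1.26, SE 0.32, limma adjusted p 0.0311). These 3 values moved when single libraries were left out: with no block, SLC7A5 was at -0.64 without 96 h replicate 2 and at -2.23 without 96 h replicate 1, SLC3A2 at -0.52 without 96 h replicate 2, and VLDLR at 0.80 without 96 h replicate 1 and 0.82 without 12 h replicate 2. Over the course as a whole, limma called 0 members against 1.72% of all genes. At an unadjusted p below 0.05, 3 members passed, against 14% of all genes. The block fit called 2, HSPA5 (limma adjusted p 0.0293) and MANF (limma adjusted p 0.021), against 6.13% of all genes.

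The ATF4 arm did not share a course between the replicate numbers. Replicate 1 was higher than replicate 2 in 18, 2, 17 and 17 of its 18 genes at 0, 6, 12 and 24 h, and in 18 of 18 genes at each of 36, 48, 72 and 96 h. Of all 16967 genes, 7054, 3313, 14494 and 12371 were higher in replicate 1 at 0, 6, 12 and 24 h, and 12699, 4827, 10487 and 13871 at 36, 48, 72 and 96 h. With TMM scaling the arm's counts were 18, 12, 10 and 16 at 0 to 24 h and 18, 18, 18 and 17 at 36 to 96 h. Not every gene had its larger gaps late: VLDLR, PPP1R15A and CEBPB had gaps of 1.74, 1.47 and 0.996 log2 units at 12 h, while their smallest late gaps were 0.88 and 0.77 at 48 h and 0.24 at 96 h. ASNS makes asparagine and carries the C/EBP-ATF element shown above. ASNS had 32.1, 14.7, 28.98, 33.1, 80.4, 78.5, 92.6 and 104 TPM in the replicate 1 libraries. Across replicate 2 the series was 19.3, 15.7, 18.9, 19.9, 13.2, 9.47, 12.9 and 11.1 TPM. At 36 to 96 h the ratio of replicate 1 to replicate 2 lay between 6.09 and 9.39, whereas at 0 to 24 h it lay between 0.941 and 1.67. PSAT1, the aminotransferase of serine synthesis, behaved alike. PSAT1 had 62.1, 24.1, 46.8, 48.6, 107, 109, 121 and 151 TPM in the replicate 1 libraries. Replicate 2 held 34.2, 25.9, 25.3, 20.1, 11.1, 10.6, 14.5 and 17 TPM of it. In replicate 1 its 4 late libraries were above every earlier library, and in replicate 2 they were below every earlier library. PHGDH catalyses the first step of serine synthesis. PHGDH had 17.4, 7.5, 19.2, 18.6, 43.9, 53.5, 58.4 and 64.6 TPM in the replicate 1 libraries. In the replicate 2 libraries it had 10.3, 8.18, 7.91, 8.46, 7.08, 4.55, 7.19 and 6.73 TPM. MTHFD2 is a mitochondrial enzyme of the folate cycle. MTHFD2 had 77.9, 49.6, 79.1, 95.8, 167, 152, 167 and 232 TPM in the replicate 1 libraries. The replicate 2 libraries gave 54.1, 67.6, 65.4, 50.9, 42.04, 31.3, 31.8 and 32.7 TPM. For both genes the late libraries of replicate 1 exceeded, and those of replicate 2 undercut, all earlier libraries of their own table. PSPH and SHMT2, the remaining enzymes of serine synthesis and the mitochondrial folate cycle, had smaller ratios at 36 to 96 h, from 1.80 to 2.65 and from 1.79 to 2.24.

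The amino acid exchanger is built from SLC7A5 and SLC3A2. SLC7A5 had 149, 143, 429, 219.5, 264, 113, 145 and 169 TPM in the replicate 1 libraries. Its replicate 2 values were 93.2, 118, 139, 119.9, 50.8, 22.5, 40.3 and 17.8 TPM. Its highest value was in 12 h replicate 1, and replicate 1 was higher at every time. SLC3A2 had 208, 187, 307, 228, 248, 217, 170.3 and 201 TPM in the replicate 1 libraries. Across replicate 2 the series was 148, 204, 218, 178, 116, 70.4, 86.2 and 60.1 TPM. Both subunits ended lower in replicate 2 than at any earlier time of that table.

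Feedback and stress effectors of the ATF4 arm showed the gap too. CHAC1 degrades glutathione. CHAC1 had 1.01, 0.54, 1.19, 2.5, 9.09, 8.12, 8.37 and 9.04 TPM in the replicate 1 libraries. Replicate 2 held 0.81, 1.03, 0.88, 0.99, 0.56, 0.28, 0.52 and 0.42 TPM of it. Its late values in replicate 2 were below 1 TPM, a range in which TPM give no sign of the reads behind them, and the log2(TPM + 1) scale understates such a ratio. NUPR1 is a small stress-inducible nuclear protein. NUPR1 had 10.1, 9.12, 9.08, 5.66, 12.4, 15.7, 9.72 and 10.6 TPM in the replicate 1 libraries. In the replicate 2 libraries it had 6.3, 23.1, 14.3, 6.35, 2.33, 2.16, 1.27 and 0.64 TPM. In the replicate 2 table its top was at 6 h, and its lowest value came at 96 h. The pseudokinase TRIB3, the eIF2 phosphatase subunit PPP1R15A, the mTORC1 inhibitor SESN2 and VLDLR had ratios of replicate 1 to replicate 2 between 1.82 and 7.67 at 36 to 96 h.

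For the transcription factors of the ATF4 arm the median late gap was 1.06 log2 units, beside 2.37 for the amino acid and folate group; this difference was not tested. ATF4 had 142, 119, 171, 167, 219.6, 215, 245 and 252 TPM in the replicate 1 libraries. The replicate 2 libraries gave 99.8, 131, 125, 128, 109, 113, 96.4 and 98.2 TPM. At 36 to 96 h ATF4 mRNA was 1.91 to 2.56 times as high in replicate 1 as in replicate 2. DDIT3 encodes CHOP, a factor linked to cell death under ER stress. DDIT3 had 9.33, 3.9, 6.14, 6.57, 10.6, 16.96, 11.1 and 9.07 TPM in the replicate 1 libraries. Its replicate 2 values were 5.94, 5.45, 4.31, 4.69, 4.38, 7.51, 5.67 and 4.63 TPM. Both tables had their top at 48 h. DDIT3 was called higher at 48 h only with TMM scaling and the block (1.04, SE 0.30, limma adjusted p 0.0426), where 1 member and 12.3% of all genes were called. CEBPG is a dimer partner of ATF4. CEBPG had 25.5, 28.1, 42.5, 45.2, 61.2, 51.7, 60.3 and 69.2 TPM in the replicate 1 libraries. Across replicate 2 the series was 24.99, 30.5, 39.1, 39.3, 38.6, 23.7, 23.3 and 17.6 TPM. CEBPG was highest at 96 h in replicate 1, while in replicate 2 its values at 48 to 96 h were below all earlier ones. CEBPB, another C/EBP factor, gave a smaller and less regular gap. CEBPB had 30.3, 13.8, 29.9, 17.8, 28.4, 22.7, 30.3 and 27.4 TPM in the replicate 1 libraries. Replicate 2 held 27.2, 16.3, 14.5, 12.2, 11.1, 10.7, 12.9 and 23.04 TPM of it. Its 96 h values of 27.41 and 23.04 TPM were close together.

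Of the 4 genes in neither arm, XBP1 sided with the ATF4 arm. XBP1 had 32.2, 29.98, 42.8, 36.9, 53.3, 47.98, 52.6 and 60.2 TPM in the replicate 1 libraries. In the replicate 2 libraries it had 50.2, 33.6, 37.4, 36.4, 27.1, 21.95, 22.3 and 21.9 TPM. At 0 h replicate 1 was the lower of the tables, and from 36 h on it was 1.97 to 2.75 times as high as replicate 2. ERN1 encodes the sensor IRE1. ERN1 had 2.92, 1.44, 3.68, 3.36, 4.25, 2.86, 4.82 and 5.42 TPM in the replicate 1 libraries. The replicate 2 libraries gave 4.84, 2.03, 2.3, 2.48, 2.33, 1.71, 2.28 and 2.09 TPM. EIF2AK3 encodes the sensor PERK. EIF2AK3 had 7.76, 5.23, 12.9, 9.75, 7.86, 4.13, 6.47 and 8.17 TPM in the replicate 1 libraries. Its replicate 2 values were 7.38, 7.57, 7.34, 7.11, 6.47, 6.47, 6.47 and 5.14 TPM. EIF2AK3 and ATF6 (5.86 to 11.1 TPM) showed no steady order of the tables at 36 to 96 h, while ERN1 was higher in replicate 1 at all 4 of these times.

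**Figure D2:**
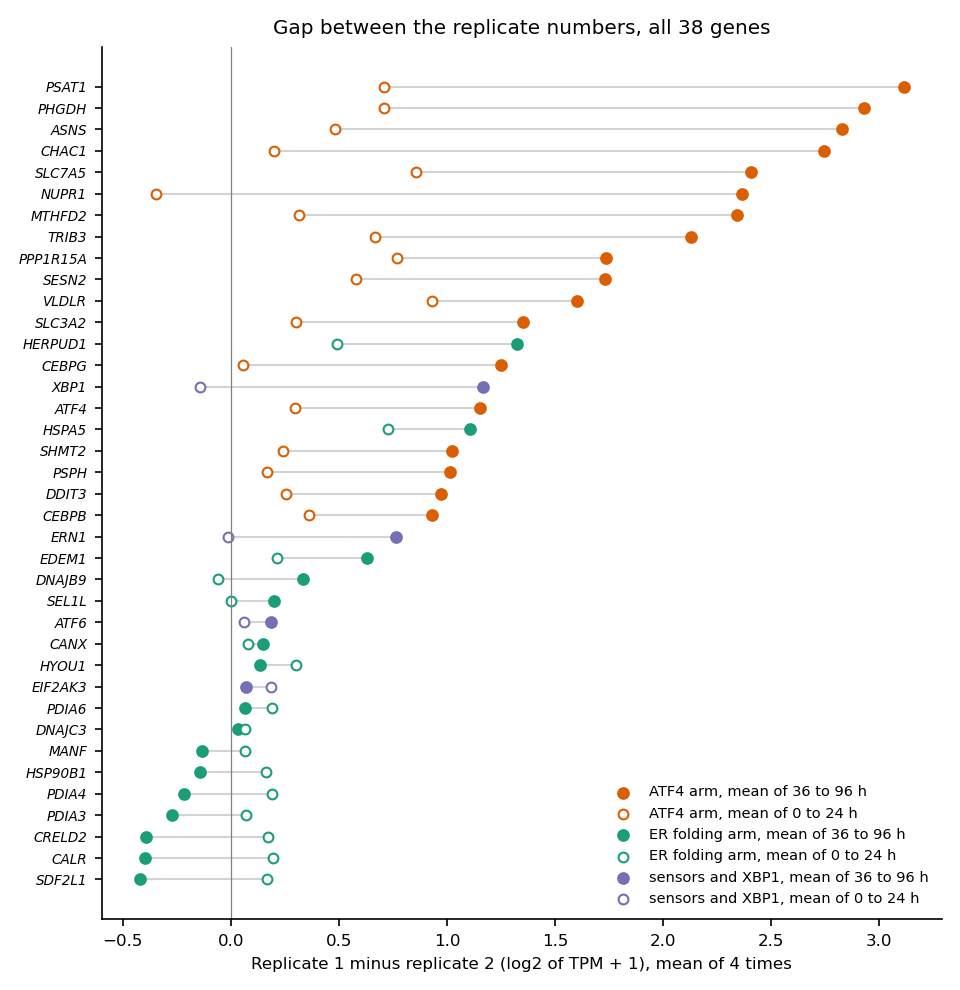
Replicate 1 minus replicate 2 on the log2(TPM + 1) scale (horizontal axis) for each of the 38 genes (rows, sorted by the late value); filled points are the mean of 36, 48, 72 and 96 h, open points the mean of 0, 6, 12 and 24 h, and colours mark the arm. The largest late gaps are those of PSAT1 (3.11), PHGDH (2.93), ASNS (2.83) and CHAC1 (2.74), and 14 of 16 ER folding genes have a late gap below 1.

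The median gap over the ATF4 arm, replicate 1 minus replicate 2, was 0.59, -0.12, 0.59 and 0.64 log2 units at 0, 6, 12 and 24 h and 1.99, 1.5, 1.66 and 1.87 at 36, 48, 72 and 96 h. For the ER folding arm it was 0.07, -0.11, 0.56 and 0.12, then 0.01, -0.35, 0.03 and 0.41. For all genes tested it was -0.05, -0.23, 0.51 and 0.20, then 0.31, -0.24, 0.12 and 0.52. A mean late gap of at least 1 log2 unit was found in 16 of 18 ATF4 arm genes and in 2 of 16 ER folding genes (HSPA5 and HERPUD1), against 3.3% of all genes. With TMM scaling it was found in 13 and 1 genes, against 2.07%. A gap of at least 1 log2 unit at each of the 4 late times was found in 9 ATF4 arm genes and 1 ER folding gene, against 0.701% of all genes. Averaged over all 8 times by the block fit, 18 members were called higher in replicate 1 and 0 lower (limma), 16 of them in the ATF4 arm, with HSPA5 and HERPUD1, where 8.32% of all genes were called higher in replicate 1. For ASNS that average difference was 1.66 (SE 0.35, limma adjusted p 0.0113).

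Whether the gap itself changed was tested gene by gene with limma, as the gap at 36 to 96 h minus the gap at 0 to 24 h, with a mean for each time. The division between 24 and 36 h was chosen after the members' values had been seen. Each replicate number is a series of its own, so the p-values do not reach beyond these libraries. Of 16967 genes, 11 were called (0.0648%), all with replicate 1 higher late, and 6 of the 11 were members, all from the ATF4 arm. The change of the gap was 2.35 for ASNS (SE 0.25, limma adjusted p 0.00695), 2.4 for PSAT1 (SE 0.27, limma adjusted p 0.00695) and 2.55 for CHAC1 (SE 0.29, limma adjusted p 0.00695). It was 2.71 for NUPR1 (SE 0.37), 2.22 for PHGDH (SE 0.31) and 2.03 for MTHFD2 (SE 0.29), each with a limma adjusted p of 0.0268. Of the other 5 called genes, 3 stood on a separate list of ATF4 targets: the cystathionine synthase CBS, the secreted stanniocalcin STC2 and the glutamine carrier SLC1A5. That list was chosen with earlier results of these data known. The remaining pair, PCK2 (mitochondrial phosphoenolpyruvate carboxykinase) and FAM129A, were named after their values were seen. PCK2 had 34.2, 28.1, 28.4 and 32.3 TPM at 36 to 96 h in replicate 1, against 4.37, 6.73, 4.63 and 3.76 TPM in replicate 2. With TMM scaling 47 genes were called (0.277%), among them 8 members, the same 6 with XBP1 (1.21, limma adjusted p 0.0443) and SLC7A5 (1.45, limma adjusted p 0.0389). ATF4 mRNA itself was not called (0.86, SE 0.20, limma adjusted p 0.327), nor was DDIT3 (0.72, SE 0.27, limma adjusted p 1). HERPUD1 (0.83, limma adjusted p 0.740) and HSPA5 (0.38, limma adjusted p 1) were not called either.

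Some measures of the libraries also differed between the tables at late times, but not at every late time in the same direction. The late replicate 1 libraries held 50.6% to 64.1% small RNAs, and the late replicate 2 libraries 59.1% to 62.1%. Summed mitochondrial mRNAs were 3631 to 9118 TPM in the late replicate 1 libraries and 4909 to 5962 TPM in those of replicate 2. Replicate 1 had fewer small RNAs and more mitochondrial mRNA than replicate 2 at 36, 72 and 96 h. At 48 h both orders were the reverse. Small RNAs then held 64.1% in replicate 1 and 60.2% in replicate 2, and mitochondrial mRNAs 3631 and 4909 TPM. The ATF4 arm was higher in replicate 1 in 18 of 18 genes at 48 h. Whether these measures are related to the gap was not tested. The 36 h and 48 h libraries of replicate 2 listed the most genes at 0, and those of 72 h and 96 h did not stand apart in this (29278 and 30913). Without both of them 0 members were called (limma adjusted p 0.0713 for ASNS and 0.115 for the other 5), while the change of the gap was 2.46 for ASNS, 2.53 for CHAC1 and 2.32 for PSAT1. ASNS, PSAT1 and CHAC1 stayed called without any 1 of the 16 libraries (limma adjusted p 0.0119 to 0.0439). NUPR1, PHGDH and MTHFD2 each lost the call without each of 14 of the 16 libraries in turn, with limma adjusted p up to 0.128, 0.136 and 0.128; the exceptions were the 2 of 0 h for NUPR1, the 2 of 12 h for PHGDH and the 2 of 24 h for MTHFD2. FN1 was above its 0 h level at 36 to 96 h in both tables, but its levels differed between them. It had 694, 503, 1292 and 1831 TPM in replicate 1, against 420, 441, 635 and 728 TPM in replicate 2. Whether this is related to the gap was not tested. Each replicate number is also a table of its own, so replicate and table cannot be told apart.

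**Figure D3:**
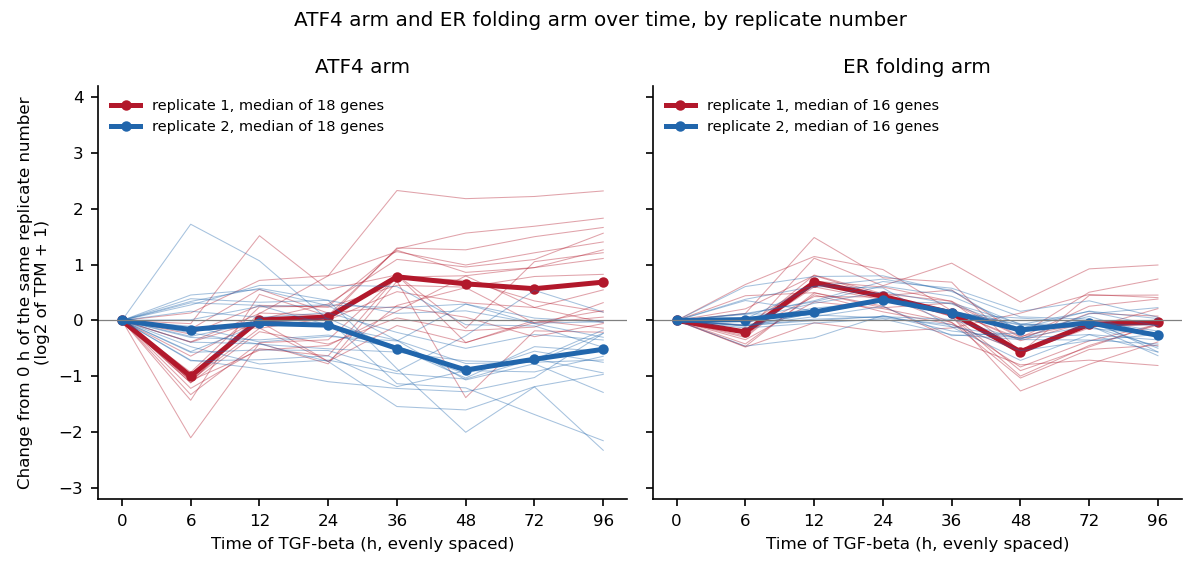
Log2 change of each gene relative to its own table's 0 h value, on the log2(TPM + 1) scale (vertical axis) over time in hours (horizontal axis, evenly spaced), with the ATF4 arm on the left and the ER folding arm on the right; thin lines are genes and thick lines with points the median, red for replicate 1 and blue for replicate 2. From 36 h the ATF4 arm medians lie at 0.57 to 0.78 in replicate 1 and at -0.89 to -0.50 in replicate 2, while the ER folding arm medians of the tables have their tops at 12 h (0.68) and 24 h (0.37). Values are as deposited. The medians of all genes tested, not drawn, lie from 36 h at -0.54 to 0.10 in replicate 1 and at -0.48 to -0.27 in replicate 2.

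The arms were compared directly within each table, as the median change of the ER folding arm from its own 0 h library minus that of the ATF4 arm. In replicate 1 this difference was 0.79, 0.67 and 0.37 log2 units at 6, 12 and 24 h and -0.65, -1.22, -0.64 and -0.72 at 36, 48, 72 and 96 h. In replicate 2 it was 0.18, 0.20 and 0.46, then 0.64, 0.72, 0.65 and 0.25. The ER folding arm was therefore the higher arm at 6 to 24 h in both tables, and from 36 h it was the lower arm in replicate 1 and the higher arm in replicate 2. TMM scaling gave the same signs in all 14 libraries. From 36 h the number of ATF4 arm genes above their own 0 h level was 17, 13, 13 and 14 of 18 in replicate 1, against 3, 3, 2 and 1 of 18 in replicate 2. For the ER folding arm it was 11, 2, 6 and 7 of 16 in replicate 1, against 10, 3, 7 and 3 of 16 in replicate 2. Both sets of counts are as deposited. The median change of all genes tested was then 0.04, -0.54, -0.06 and 0.10 log2 units in replicate 1. In replicate 2 it was -0.35, -0.38, -0.27 and -0.48, so more genes of that table lay below their 0 h level than above it. With TMM scaling the ER folding arm medians at 36 to 96 h were 0.10, 0.10, 0.02 and -0.13 in replicate 1, against 0.53, 0.24, 0.28 and 0.26 in replicate 2, so in that scaling replicate 2 did not return to its 0 h level. The ATF4 arm medians in that scaling were 0.75, 1.31, 0.66 and 0.59 in replicate 1. They were -0.13, -0.48, -0.38 and -0.07 in replicate 2.

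Other genes of the same pathways, taken from lists of known function, divided along the same line. These lists were chosen with earlier results of these data known. The division between 24 and 36 h was chosen after the members' values had been seen. The lists are therefore no independent support for the gap of the members. A mean late gap of at least 1 log2 unit was found in 17 of 24 other ATF4 targets and in 9 of 12 cytosolic aminoacyl-tRNA synthetases, against 3.3% of all genes. With TMM scaling it was found in 15 and 5 of them, against 2.07%. It was found in 0 of 27 other ER folding and degradation genes, 0 of 23 genes of ER translocation and glycosylation, 0 of 16 genes of coat protein II export, and 1 of 12 genes of eIF2 and its kinases (0 with TMM scaling). Median late gaps were 1.39, 1.19, 0.07, -0.02, 0.17 and 0.35 log2 units in that order, beside 0.17 for all genes. At 12 h against 0 h the median log2 fold change was 0.47 for the ER chaperones and cofactors of the members and 0.17 for the other ER folding genes, beside 0.03 for all genes. Among the other ATF4 targets, the stress cytokine GDF15 was called lower at every later time (limma) with a mean late gap of 0.37 log2 units. It had between 2.13 and 6.48 TPM in all 14 later libraries, against 38.6 and 45.8 TPM at 0 h. Without 0 h replicate 2 it was called at 1 of the 7 times, and without any other library at 5 to 7. At 72 and 96 h against 6 and 12 h the amino acid carrier SLC38A2 (0.91, SE 0.23, limma adjusted p 0.0475) and KLHL24 (0.99, SE 0.18, limma adjusted p 0.00944) rose. The export coat gene SEC23B fell by 0.66 (SE 0.14, limma adjusted p 0.019). The SLC38A2 call was lost without each of 11 of the 16 libraries (limma adjusted p up to 0.208) and with no filter on low values (limma adjusted p 0.111), the KLHL24 call without 72 h replicate 1 (limma adjusted p 0.0621) and the SEC23B call without 6 h replicate 2 (limma adjusted p 0.0936) or 72 h replicate 1 (limma adjusted p 0.101).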

How the data were processed

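RNA was sequenced from A549 cells at 8 times of TGF-beta treatment, with 2 libraries at each time. Gene abundances were deposited by the authors as TPM, with a table for each of the 2 replicate numbers; per the submitters' processing notes Bowtie and RSEM were used, with no version stated. Neither a genome build nor an annotation release is given in the sources used here. Since TPM keep no record of reads, the depth is unknown and values carry no counting interval. All 16 value columns were mapped to a library by time and replicate number.

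Genes at 1 TPM or more in at least 2 libraries were kept (16967 of 57773), and log2(TPM + 1) was fitted with limma 3.58.1 in R 4.3.3 (empirical Bayes with trend, two-sided), with a mean for each time and no block. P-values were adjusted by Benjamini-Hochberg over all genes kept. Log2 fold changes on this scale understate the change of low genes. Same-numbered libraries deviated together: the correlation of deviations from the time means exceeded 0.1 in 28 of 28 pairs of times (median 0.438), so the block fit is given wherever it changes a call. The pairing comes from the values, not from the labels. Alternatives were TMM scaling, the replicate block, a pseudocount of 0.1, no filter, a filter of 5 TPM, leaving out each library, and leaving out the 36 h and 48 h libraries of replicate 2. The test of the late gap (a replicate by late time term beside the block) was chosen after seeing the data. Figures were drawn with matplotlib 3.10.9 in Python 3.11.15.

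The members and the lists of other genes were chosen with earlier results of these data known. Full values are given for ATF4, DDIT3, XBP1, HSPA5 and ASNS, for each member called in the fit without a block or scaling, and for the 2 members of each role group with the largest change at 24 or 96 h. PSAT1, PHGDH, MTHFD2 and, among the other genes, SLC38A2, KLHL24 and SEC23B were added after their values were seen. Promoter sequences are RefSeq's (GRCh38.p14).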

Additional observations from a re-analysis of the deposited data

Results flagged for a closer look

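For 6 genes of the ATF4 arm the difference between replicate 1 and replicate 2 was itself different at 36 to 96 h from that at 0 to 24 h, by an interaction term in limma. The term and the division between 24 and 36 h were chosen after the members' values had been seen. Each replicate number is a series of its own, so the result describes these libraries only. The change of the gap was 2.35 log2 units for ASNS, 2.4 for PSAT1, 2.55 for CHAC1, 2.71 for NUPR1, 2.22 for PHGDH and 2.03 for MTHFD2, with replicate 1 the higher late in each. The gap is between libraries that carry the same labels apart from the replicate number, and its cause was not tested.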

How the results depend on the processing

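TPM hold no depth, 2 libraries stand for each time, and all tests share 16 libraries. Against 0 h the members called numbered 2, 2, 4 and 1 at 6, 12, 24 and 48 h with TMM scaling and the replicate block, in place of 0. Of all genes 1.88%, 5.35%, 7.27% and 12.3% were called in that fit. With TMM scaling alone 1 member was called at 24 h, beside 2.81% of all genes. Leaving out a library gave 0 to 1 at 48 h. For 72 and 96 h against 6 and 12 h, in place of 2, it was 5 with the block, 7 with TMM scaling and the block, 1 with no filter, 1 without the 36 h and 48 h libraries of replicate 2, and 0 to 2 when 1 library was left out. Over the course, in place of 0, it was 1 with TMM scaling, 2 with the block, 3 with both, 1 with the filter of 5 TPM and 0 to 1 when 1 library was left out. For 72 and 96 h against 6 and 12 h, 7.78% of all genes were called with the block. With TMM scaling and the block 17.5% were. Over the course 3.29% of all genes were called with TMM scaling, 6.13% with the block and 11.6% with both. The block changed no other call named in the text. The median of the ER folding arm minus that of the ATF4 arm lay between 0.081 and 0.77 at 24 h, between -1.04 and 0.98 at 36 h and between -1.04 and 0.88 at 72 h when 1 library was left out; without the 36 h and 48 h libraries of replicate 2 it was -1.04 at 36 h. Members with a late gap numbered 6, against 3 to 4 when 1 library was left out and 0 without those 2 libraries. The cause of these shifts was not tested.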
